A study of Rattus norvegicus with 9 samples.

Results

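The control knee cartilage of the series was described from its 3 RNA sequencing libraries, out of 9 in all, and over all 32043 genes in the table. The libraries were chosen by their label as controls and not by any measured value. They came from male Sprague-Dawley rats, bought at 8 weeks of age, whose left knee capsule was opened and sutured with no cut to ligament or meniscus. They received no extract, and tissue was taken 8 weeks after the operation. The other 6 libraries of the study, from operated knees with and without the herbal extract SYD, were not compared here. No source used here says how many animals stood behind 1 library, so the spread between libraries may be technical or biological.

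Articular cartilage is a tissue without blood vessels, in which chondrocytes lie in a matrix of type II collagen fibrils and the proteoglycan aggrecan. Beneath it lie calcified cartilage, where hypertrophic chondrocytes make type X collagen, and then bone with osteoblasts, osteocytes, and osteoclasts. The spaces of that bone hold marrow, which makes red cells, granulocytes, platelets, and B cells. Samples cut from a small joint can hold all of these layers, and a bulk library sums their RNA. Fewer cells of a type and less RNA per cell cannot be told apart in such a library.

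Levels are given as FPKM, fragments scaled by the length of the gene and the size of the library, so that genes of different length can be set side by side. Whole reads could be worked back from the FPKM, and they totalled 14914121, 16935437, and 18107232 in control libraries 1, 2, and 3. A floor of 3 reads in a gene of 1 kb stood at 0.0999, 0.0815, and 0.0761 FPKM in the same order, which covers counting error only. A value above 0 was found for 17377 genes in all 3 libraries, and 11057 genes were listed at 0 in all of them. Counts over all genes below refer to the 11028 genes with a mean of at least 1 FPKM and a mean of at least 50 reads. Chi-square per gene was 57.7 to 348 for the pairs of libraries, so that no pair looked like 1 library deposited under 2 names.

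Control library 2 stood apart from the other libraries. Pearson's r of log2(FPKM + 1) across the 11028 genes was 0.97 between libraries 1 and 3, 0.94 between libraries 2 and 3, and 0.91 between libraries 1 and 2. These genes are not independent replicates, and the 3 values are a description. Between libraries 1 and 3, 212 genes (1.92%) differed by over 2-fold, against 1417 between libraries 1 and 2 and 922 between libraries 2 and 3. The cartilage genes were low in library 2 and the erythroid, neutrophil, and platelet genes were high, so most levels below are given for each library and some of the main ones also without library 2.

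The label of the tissue was checked against marker genes. Of 20 cartilage matrix genes, 18 passed both limits, and the list summed to 12352, 517, and 6376 FPKM in libraries 1, 2, and 3. The labels' account of RNA extraction names retina, but 19 of 20 photoreceptor and retina genes were below the limits and 8 of them, among them Crx, Nrl, and Rpe65, were listed at 0 in all libraries. The exception was Rom1, a disc membrane protein of photoreceptors, at 3.23, 2.99, and 3.02 FPKM. Of the genes of the male Y chromosome, Eif2s3y read 10.2, 11.8, and 9.75 FPKM in these male rats.

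The abundance ranking mixed the products of red cells, cartilage, bone, and granulocytes. The highest gene by mean FPKM was Hba-a1, an alpha chain of hemoglobin, at 5096, 12594, and 6065 FPKM in libraries 1, 2, and 3. The next outside the mitochondrial chromosome was Col2a1, the type II collagen of cartilage (chr7:129098786-129127546, minus strand, in the table), at 8323, 348, and 4468 FPKM. Without library 2, Col2a1 took the first place and Hba-a1 lost it. In libraries 1 and 3 these genes were of the same order, whereas in library 2 Hba-a1 was far above Col2a1. The Hba-a1 entry was scaled over 2860 bases, and that of Hba-a3, an alpha-like hemoglobin gene, over 548 bases. The level and rank of Hba-a1 rest on the length given to its entry.

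The type I collagen genes Col1a1 and Col1a2, which encode the main fibre of bone and of fibrous tissue, followed. Col1a1 read 4426, 1962, and 3225 FPKM, and Col1a2 read 2315, 1087, and 1861 FPKM. Sparc, a collagen-binding glycoprotein also called osteonectin, read 2369, 660, and 1898 FPKM. All 3 were lowest in library 2 and highest in library 1. S100a8 and S100a9, which together form the calprotectin of neutrophils, stood among them, with S100a8 at 1239, 2312, and 1564 FPKM and S100a9 at 859, 1935, and 1273 FPKM. Both were highest in library 2, as was Lyz2, the lysozyme of myeloid cells, at 942, 1553, and 1043 FPKM.

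The 25 highest genes of at least 300 bp were counted outside the mitochondrial chromosome. The rest of them held more granulocyte products, the hemoglobin gene Hbb, a bone hormone, and genes that all cells use. The defensin genes RatNP-3b, Np4, and Defa5 read between 523 and 1345 FPKM in every library and were lowest in library 3, unlike S100a8. They are near copies of each other, so their reads may be shared between entries. Bglap, the osteocalcin of osteoblasts, read 935, 818, and 1067 FPKM. Actb, the cytoplasmic actin, read 762, 895, and 771 FPKM, and the ribosomal protein gene Rplp0 read 666, 725, and 670 FPKM. Fth1, the ferritin heavy chain, and Gpx1, a glutathione peroxidase, read 489 to 594 and 336 to 704 FPKM. Ybx3, a protein that binds DNA and RNA, read 273, 661, and 326 FPKM and was highest in library 2, 2.03 times library 3 on the deposited scale and 1.87 times at equal sums. One entry without a gene name, described in the table as like the ribosomal protein RL7, was also among them. Of genes shorter than 300 bp, whose FPKM is the least certain, Atp5f1e, a subunit of ATP synthase, was highest at 192, 178, and 227 FPKM.

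Few genes carried much of the signal. The 10 highest genes held 19.4, 18.4, and 16.8% of the summed FPKM of libraries 1, 2, and 3, and the 100 highest held 39.1, 39.0, and 36.7%. The number of genes that made up 50% of the sum was 274, 263, and 326. In all 3 libraries 10440 genes reached 1 FPKM, 2494 reached 10 FPKM, 170 reached 100 FPKM, and 11 reached 1000 FPKM. Mitochondrially encoded genes held 10.8, 11.3, and 10.2% of the summed FPKM, led by the cytochrome oxidase subunit Mt-co1 at 4086, 4636, and 3756 FPKM. Cytosolic ribosomal protein genes held 6.87, 7.77, and 7.76%, and both groups differed little between libraries. On reads the shares were smaller, at 4.07, 4.86, and 4.05% and at 3.10, 3.94, and 3.67%.

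**Figure D1:**
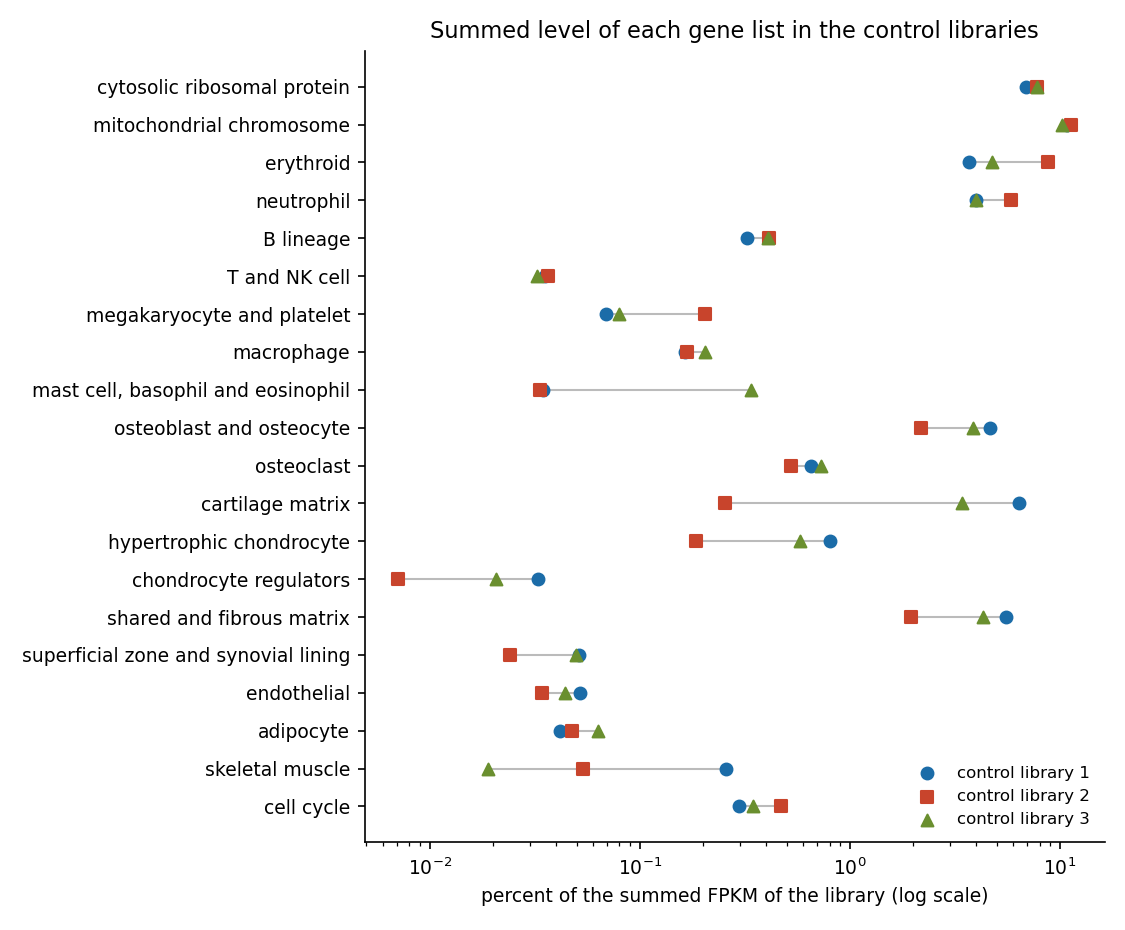
Percent of the summed FPKM of each control library (horizontal, log scale) taken by each gene list (vertical), with 1 point per library and a grey line from the lowest to the highest. The cartilage matrix list runs from 0.255% in library 2 to 6.39% in library 1, while the ribosomal protein list lies between 6.87 and 7.77%.

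Lists of marker genes gave the balance of cartilage, bone, and marrow. The 20 genes of the cartilage matrix list held 6.39, 0.255, and 3.41% of the summed FPKM in libraries 1, 2, and 3. The 40 genes of the bone lists, for osteoblasts, osteocytes, and osteoclasts, held 5.29, 2.69, and 4.59%. Col2a1 made up 68.3% of the summed mean FPKM of the cartilage list. Col1a1, which fibrous tissue also makes, made up 46.7% of that of the osteoblast and osteocyte list. The 109 genes of the marrow lists, for red cells, neutrophils, B and T cells, and platelets, held 8.10, 15.3, and 9.28%. Marrow genes thus held the largest of the 3 shares of FPKM in every library, and cartilage genes the smallest in libraries 2 and 3. On reads, which are not divided by gene length, the marrow lists held 0.517, 25.9, and 1.17 times as much as the cartilage list, and the bone lists 0.780, 8.54, and 1.18 times as much. On that scale cartilage led and marrow came last in library 1, and bone and marrow were nearly level in library 3. These shares depend on how many genes a list holds and do not measure tissue mass.

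Ratios within 1 library do not depend on how libraries were scaled against each other. The summed FPKM of the marrow lists was 1.27, 59.9, and 2.72 times that of the cartilage matrix list, and the mean without library 2 was 1.99. The bone lists stood at 0.828, 10.6, and 1.35 times the cartilage list, with a mean of 1.09 without library 2. The ratio of marrow to bone moved less, at 1.53, 5.67, and 2.02. Library 2 was the highest in all 3 ratios and library 1 the lowest.

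Ratios between genes of the same cell type were set beside those between tissues. The ratio of the hemoglobin genes Hbb to Hba-a1 was 0.138, 0.137, and 0.138, and that of Col1a2 to Col1a1 was 0.523, 0.554, and 0.577. Within cartilage, Acan stood at 0.0367, 0.0299, and 0.0319 of Col2a1, and Col10a1 at 0.0810, 0.0638, and 0.0731 of Col2a1. Both are ratios of levels per length, and their highest and lowest libraries were 1.22-fold and 1.27-fold apart although Col2a1 itself ranged over 23.9-fold. Not every pair was so steady, since Cytl1 over Col2a1 ranged over 5.30-fold. Across tissues, the ratio of Col1a1 to Col2a1 was 0.532, 5.63, and 0.722. Within bone, Bglap to Col1a1 was less steady, at 0.211, 0.417, and 0.331.

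**Figure D2:**
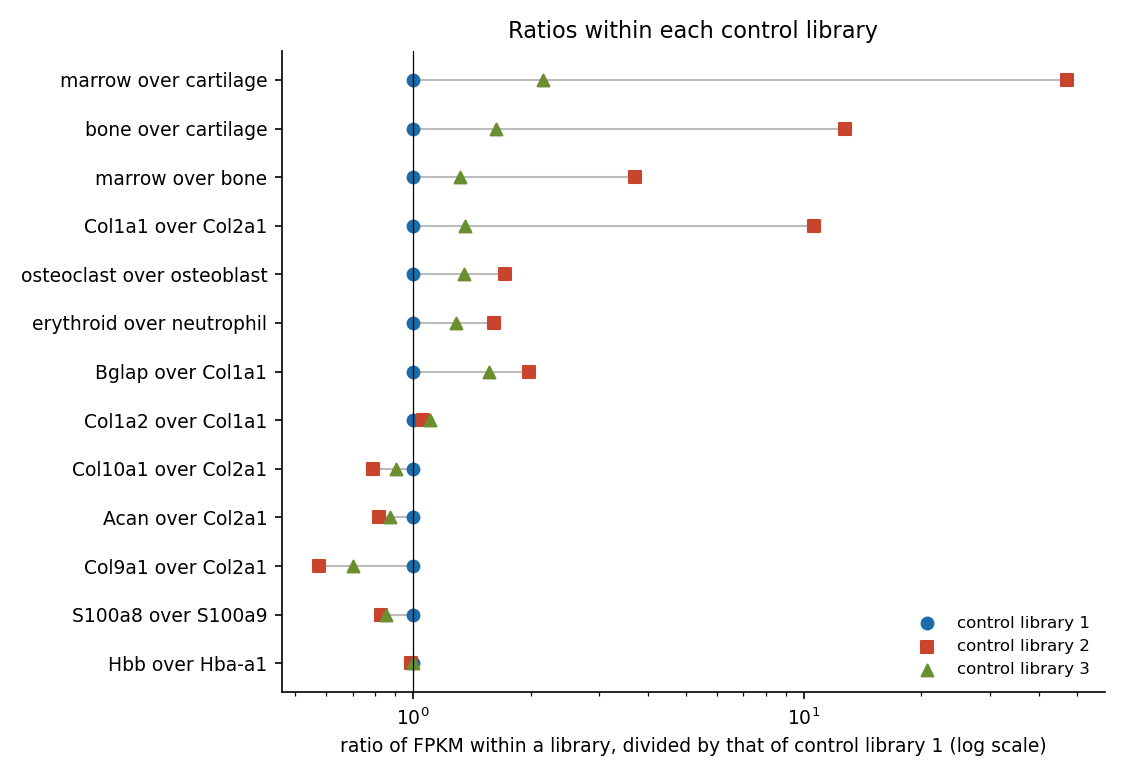
Ratios of FPKM within each control library, divided by the ratio in library 1 (horizontal, log scale). The ratios between tissues at the top spread up to 47.3-fold, and the ratio of Hbb to Hba-a1 at the bottom spread 1.01-fold.

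All 18 cartilage matrix genes that passed the limits were over 2-fold apart between their highest and lowest library, where 14.2% of the 11028 genes were. Every one was lowest in library 2, where 37.4% of all genes were lowest, and 17 were highest in library 1, against 30.1% of all genes. The other member of this list to be highest elsewhere was Cytl1, a small secreted protein of chondrocytes, at 9.22, 2.05, and 14.3 FPKM. The 15 of them that reached 1 FPKM in each library were all over 2-fold apart. The median gap between the highest and the lowest library was 28.2-fold, against 1.33-fold over all genes.

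The fibril collagens that join type II collagen had the same order of libraries. Col11a1 read 319, 24.1, and 146 FPKM, and Col11a2 read 505, 42.2, and 218 FPKM. The type IX collagen genes, whose product coats the fibril, read 393, 9.45, and 148 FPKM for Col9a1, 394, 10.9, and 153 FPKM for Col9a2, and 532, 14.8, and 217 FPKM for Col9a3. In each of these 5 genes library 1 was over 2 times library 3, and library 2 was far below both.

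Proteoglycans and linking proteins followed them. Acan, which encodes aggrecan, read 305, 10.4, and 143 FPKM, and Hapln1, whose product links aggrecan to hyaluronan, read 355, 11.0, and 204 FPKM. Comp, a matrix protein that binds collagen, read 328, 8.91, and 161 FPKM, and Matn3, a matrilin, read 157, 4.06, and 63.5 FPKM. Chad, a cell-binding protein of cartilage, read 167, 7.88, and 127 FPKM. Even in library 2 these were not absent, since Acan rested on 2663 reads there and Col2a1 on 60783. Smaller members were Cnmd, an inhibitor of vessel growth, at 249, 7.03, and 104 FPKM, Ucma at 132, 7.15, and 88.0 FPKM, and Snorc at 127, 6.76, and 74.7 FPKM.

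The genes of the upper cartilage layers were lower. Cilp and Cilp2, which encode proteins of the intermediate layer, read 14.8, 0.546, and 13.6 FPKM and 27.7, 0.873, and 21.3 FPKM. Prg4, the lubricin of the joint surface, read 31.9, 2.92, and 33.0 FPKM. For these 3 genes libraries 1 and 3 lay closer together than for the type IX collagen genes. Of the list for the superficial zone and synovial lining, 6 of 11 passed genes were over 2-fold apart (14.2% of all genes were), but Thy1, its highest member, was not, at 25.4, 21.9, and 22.2 FPKM. Matn1, another matrilin, read 12.5, 0.590, and 10.7 FPKM. Epyc stayed under the limits and Otos was listed at 0 in all libraries.

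Hypertrophic cartilage was present as well. Col10a1, the type X collagen of hypertrophic chondrocytes, read 674, 22.2, and 327 FPKM. Ihh, the hedgehog ligand that these cells release, read 24.5, 0.311, and 10.6 FPKM. Panx3, a channel of hypertrophic chondrocytes and osteoblasts, was at 42.1, 1.83, and 21.6 FPKM. Of the 10 genes of the hypertrophic list 8 were over 2-fold apart (14.2% of all genes were) and all 10 were lowest in library 2 (37.4% of all genes were). Spp1, the osteopontin of bone and hypertrophic cartilage, ranged less, at 489, 238, and 471 FPKM. Among regulators of chondrocytes, Sox9, the transcription factor of the lineage, read 8.82, 0.492, and 5.29 FPKM, and Fgfr3, a receptor that restrains growth of cartilage, read 24.6, 2.49, and 12.9 FPKM. Sox6 went against this order at 3.28, 4.84, and 3.58 FPKM.

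**Figure D3:**
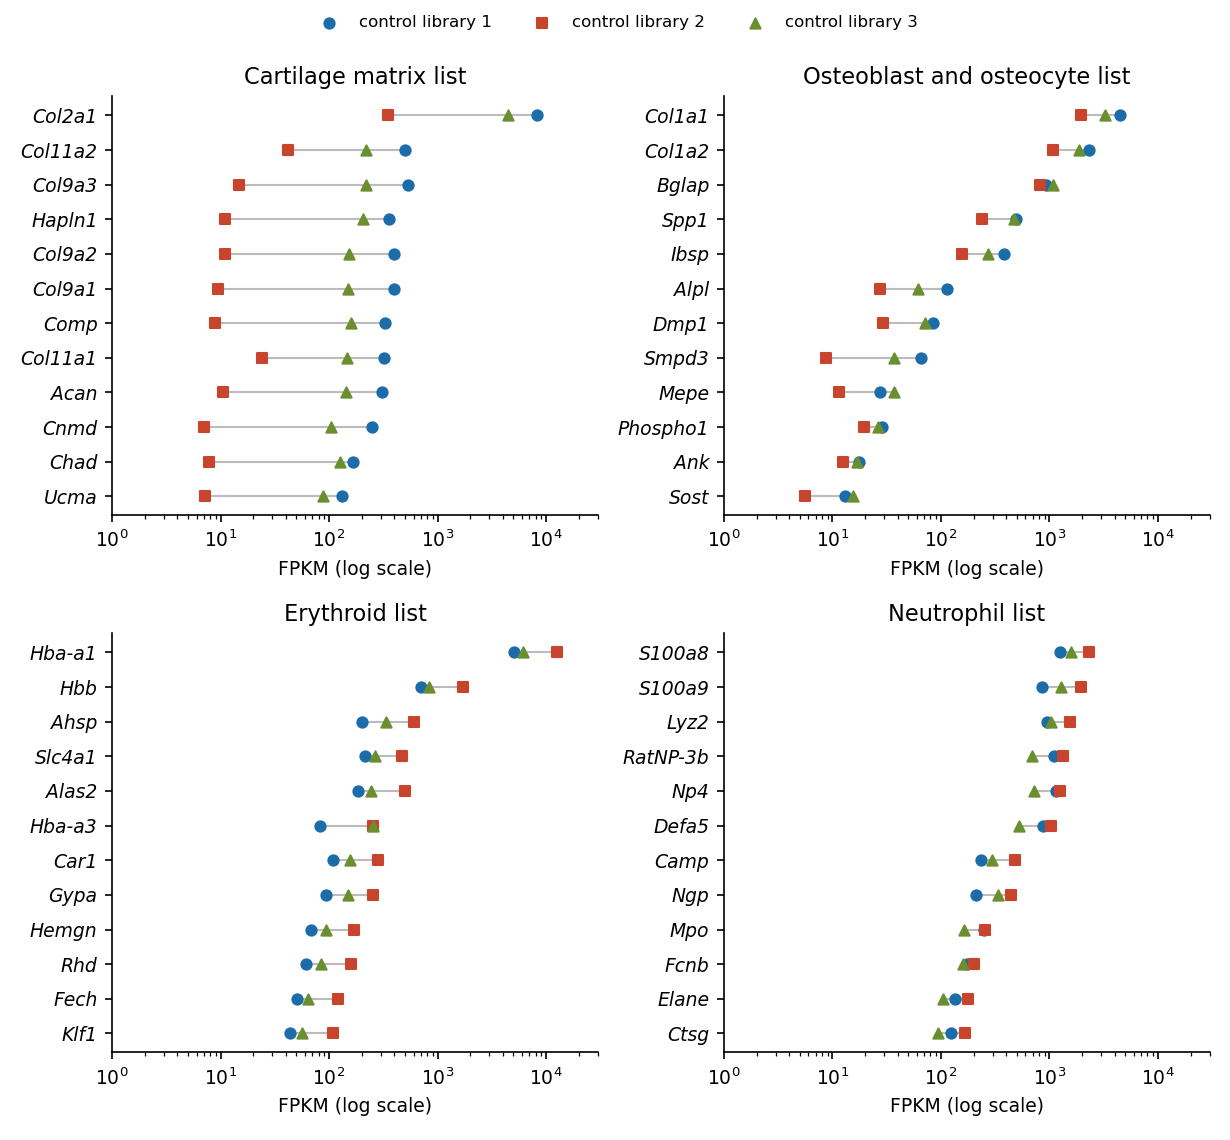
FPKM (horizontal, log scale) of the 12 highest members of 4 gene lists, 1 point per control library. Library 2 lies lowest for every cartilage gene shown, from 348 FPKM for Col2a1 downward, and highest for the neutrophil genes shown on the deposited scale, while osteoblast genes spread less.

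Bone genes were also lowest in library 2, but by less. All 20 passed members of the osteoblast and osteocyte list were lowest there (37.4% of all genes were), 14 were over 2-fold apart (14.2% of all genes were), and the median gap was 2.26-fold, against 1.33-fold over all genes. Their summed share was 4.63, 2.17, and 3.86%. Ibsp, the bone sialoprotein, read 384, 157, and 269 FPKM, and Alpl, the phosphatase that frees phosphate for mineral, read 114, 27.2, and 62.0 FPKM. Smpd3, a sphingomyelinase needed for mineral, ranged most at 65.3, 8.63, and 37.0 FPKM, and Bglap ranged least.

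Osteocyte genes were clearly above the floor. Dmp1, a matrix phosphoprotein of osteocytes, read 84.8, 28.9, and 71.3 FPKM, and Mepe, from the same family, read 27.5, 11.5, and 36.5 FPKM. Sost, which encodes the WNT inhibitor sclerostin of osteocytes, read 13.1, 5.57, and 15.3 FPKM. Mepe and Sost were highest in library 3. The bone transcription factors Sp7 and Runx2 read 13.8, 6.07, and 9.91 FPKM and 6.48, 3.25, and 5.60 FPKM. Fgf23, the phosphate hormone of osteocytes, stayed under the limits.

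Osteoclast genes were mostly lowest in library 2, in 11 of 16 passed members (37.4% of all genes were), but their highest library varied. Of the 16, 6 were highest in library 1, 3 in library 2, and 7 in library 3 on the deposited scale. Over all genes these shares were 30.1, 47.6, and 22.3%. At equal sums 12 of the 16 were highest in library 3, where 34.4% of all genes were. Over 2-fold apart were 3 of them (18.8%, beside 14.2% of all genes). Ctsk, the collagen-cutting cathepsin of osteoclasts, read 346, 251, and 430 FPKM, and Acp5, their acid phosphatase, read 350, 186, and 346 FPKM. Car2, a carbonic anhydrase of osteoclasts that red cells also hold, read 138, 353, and 200 FPKM. Mmp9, a gelatinase of osteoclasts and neutrophils, read 308, 164, and 263 FPKM. The summed FPKM of the list stood at 0.141, 0.241, and 0.190 times that of the osteoblast and osteocyte list.

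Genes of red cell precursors had the opposite order. Of 24 passed erythroid genes, 23 were highest in library 2 (47.6% of all genes were), all 24 were lowest in library 1 (42.7% of all genes were), and 23 were over 2-fold apart (14.2% of all genes were). The share of the list was 3.70, 8.79, and 4.77%, and Hba-a1 made up 70.1% of the summed mean FPKM of the list. Hbb, a beta chain of hemoglobin, read 705, 1725, and 839 FPKM. The Hba-a1 entry of the table (chr10:15307815-15338392, minus strand, in a build that is not named) spans the place of Hba-a3 (chr10:15311634-15312481), so reads of these near copies may be shared. The member that was highest in library 3 was Hba-a3, an alpha-like hemoglobin gene, at 81.9, 252, and 255 FPKM.

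The genes of the precursors moved with hemoglobin. Alas2, the first enzyme of heme synthesis in red cell precursors, read 183, 498, and 242 FPKM, and Ahsp, a chaperone of alpha hemoglobin, read 201, 610, and 336 FPKM. Slc4a1, the anion exchanger of the red cell membrane, read 217, 473, and 262 FPKM. These genes are transcribed in nucleated precursors, which are found in marrow, but the source of their RNA in these libraries was not tested. The embryonic genes Hbe1 and Hbz stayed under the limits and Hbe2 was listed at 0.

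Neutrophil, platelet, and cell cycle genes were also highest in library 2. All 26 passed neutrophil genes were, beside 47.6% of all genes, and 9 of them were over 2-fold apart (34.6%, beside 14.2%). Rescaled so that each library summed to the same total, 23 of the 26 were highest there, beside 37.1% of all genes. The share of the list was 3.97, 5.85, and 3.98%. Single members differed between libraries 1 and 3, since 14 were lowest in library 1 and 12 in library 3 (42.7 and 19.9% of all genes were). All 13 passed genes of megakaryocytes and platelets were highest in library 2 under each scaling, with the chemokine gene Pf4 of platelets at 45.9, 153, and 57.7 FPKM and Ppbp, another platelet chemokine, at 39.8, 130, and 42.4 FPKM. All 25 cell cycle genes were highest in library 2 under each scaling (47.6% of all genes were, and 37.1% at equal sums), but 2 of them were over 2-fold apart, a smaller share than the 14.2% of all genes. Mki67, which marks dividing cells, read 37.4, 61.7, and 44.8 FPKM, and Pcna, a clamp of DNA replication, read 63.4, 112, and 76.7 FPKM.

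Few B lineage and macrophage genes had wide gaps, but their median gaps of 1.34-fold and 1.45-fold were no smaller than the 1.33-fold of all genes. Of 20 passed B lineage genes 1 was over 2-fold apart, below the 14.2% of all genes. On the deposited scale 10 were highest in library 2 and 10 in library 3, beside 47.6 and 22.3% of all genes. With equal sums 5 were highest in library 2 and 15 in library 3, beside 37.1 and 34.4% of all genes. Cd79a, a part of the B cell receptor, read 155, 197, and 172 FPKM, and Jchain, the joining chain of secreted antibodies, read 106, 187, and 122 FPKM. None of the 14 passed macrophage genes was over 2-fold apart. Tyrobp, a signal adaptor of myeloid cells, read 113, 161, and 159 FPKM, and C1qb, a chain of complement C1q, read 30.4, 25.7, and 29.8 FPKM. The B lineage list stood at 0.323, 0.414, and 0.409% of the summed FPKM and the macrophage list at 0.165, 0.169, and 0.204%. T and NK cell genes were scarce, with 7 of 18 over the limits and a median gap of 1.83-fold. Of these 7, 2 were over 2-fold apart (14.2% of all genes were). Of the 5 that reached 1 FPKM in every library, 0 were over 2-fold apart.

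**Figure D4:**
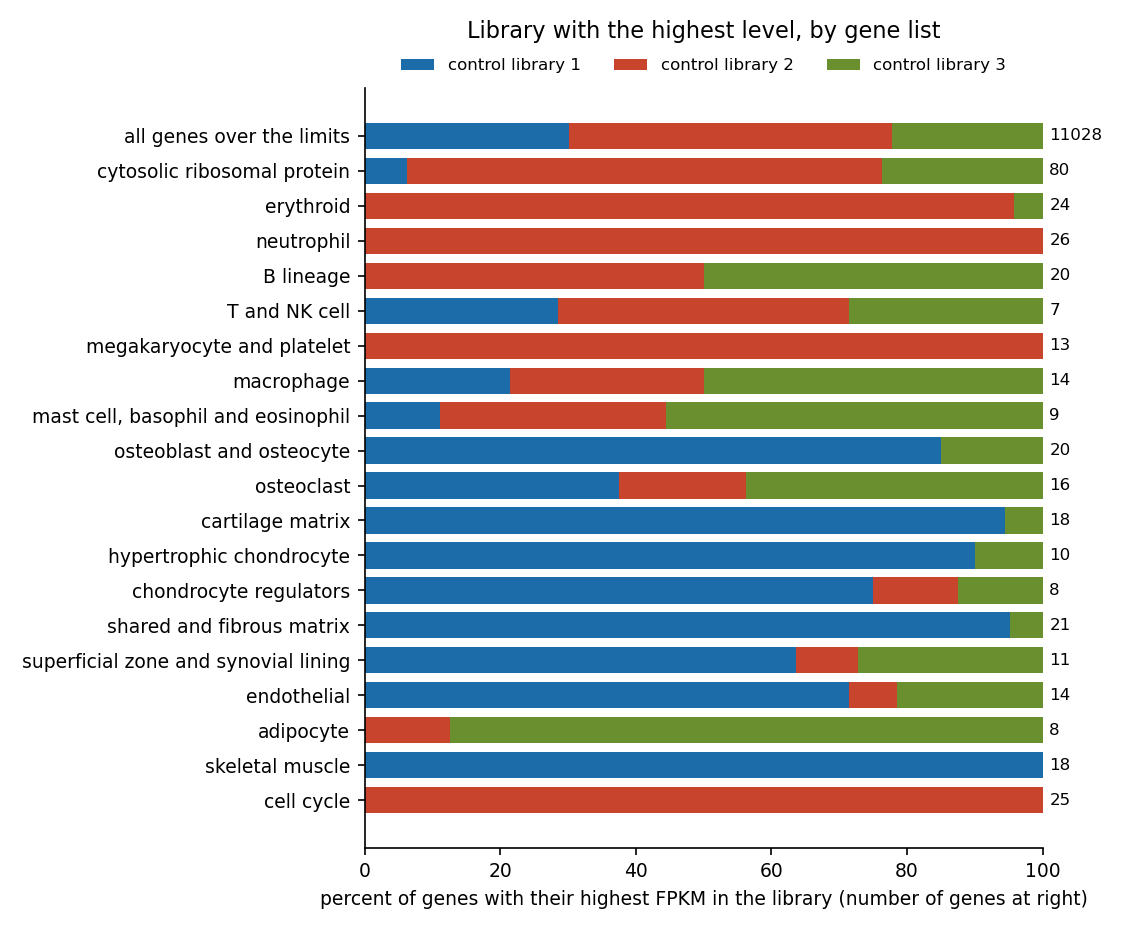
Percent of the passed genes of each list (vertical) that had their highest FPKM in control library 1, 2, or 3 (horizontal, stacked bars from 0 to 100), with the number of genes at the right. On the deposited scale the shares over all 11028 genes were 30.1, 47.6, and 22.3%, whereas cartilage and muscle genes were highest in library 1 and erythroid, neutrophil, platelet, and cell cycle genes in library 2.

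The promoters of genes from the cartilage, bone, and red cell groups are shown because these groups made up the balance described above. Col10a1 stands for cartilage here but is in the hypertrophic list, which was not part of that balance. Col10a1, Hba-a1, and Alas2 had the highest and lowest library of most of their lists, whereas Bglap ranged least of its list and was highest in library 3. They were taken from RefSeq on the GRCr8 build, from 250 bases before to 50 bases after the start of the gene, 5′ to 3′ on the strand of the gene. Positions of genes in the table follow another build, which the sources used here do not name for rat. Capitals mark TATAAA, the core promoter box, where a window holds it. They also mark ACAAAG in Col10a1, a motif of SOX factors, and AACCACA in Bglap, a motif of RUNX factors. In Hba-a1 and Alas2 they mark the letters TGATAA, or in place of these AGATAA, both motifs of GATA factors. Both strands were searched, and no marked motifs overlap. The windows lie at chr20:39737286-39737585 on the plus strand, chr2:176137269-176137568 on the minus strand, chr10:15842531-15842830 on the minus strand, and chrX:22895200-22895499 on the plus strand.
Col10a1 promoter: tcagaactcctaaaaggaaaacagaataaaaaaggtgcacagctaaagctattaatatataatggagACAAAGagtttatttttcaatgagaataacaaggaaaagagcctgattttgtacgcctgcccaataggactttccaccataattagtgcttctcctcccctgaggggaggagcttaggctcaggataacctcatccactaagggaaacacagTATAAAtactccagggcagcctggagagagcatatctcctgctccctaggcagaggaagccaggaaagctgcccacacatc
Bglap promoter: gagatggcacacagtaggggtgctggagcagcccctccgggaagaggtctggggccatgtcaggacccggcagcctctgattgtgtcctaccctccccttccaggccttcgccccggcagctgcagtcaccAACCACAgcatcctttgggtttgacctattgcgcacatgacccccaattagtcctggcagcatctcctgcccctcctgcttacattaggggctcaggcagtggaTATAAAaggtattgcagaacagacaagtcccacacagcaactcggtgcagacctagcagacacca
Hba-a1 promoter: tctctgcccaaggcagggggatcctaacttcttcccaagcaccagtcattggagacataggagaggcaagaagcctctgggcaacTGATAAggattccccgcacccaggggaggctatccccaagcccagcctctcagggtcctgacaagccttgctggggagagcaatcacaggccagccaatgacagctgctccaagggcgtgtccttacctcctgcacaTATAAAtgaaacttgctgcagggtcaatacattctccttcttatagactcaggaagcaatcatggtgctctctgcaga
Alas2 promoter: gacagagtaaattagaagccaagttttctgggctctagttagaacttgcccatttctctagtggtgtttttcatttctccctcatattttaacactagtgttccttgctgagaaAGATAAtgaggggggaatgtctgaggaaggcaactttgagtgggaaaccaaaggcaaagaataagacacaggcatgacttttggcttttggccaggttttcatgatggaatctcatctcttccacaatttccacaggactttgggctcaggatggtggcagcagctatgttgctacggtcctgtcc

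In these windows TATAAA began 31 bases before the start of Col10a1, 15 before that of Bglap, and 28 before that of Hba-a1, and Alas2 held none. The GATA letters began 165 bases before the start of Hba-a1 and 136 before that of Alas2, the RUNX letters 119 before that of Bglap, and the SOX letters 183 before that of Col10a1. Of 21 erythroid genes with a promoter in the tables, 14 held at least 1 of the GATA motifs (66.7%), where 18.9% of all 33469 promoters did. The same letters were in 1 of 15 cartilage matrix, 0 of 14 osteoblast and osteocyte, 1 of 10 osteoclast, and 6 of 24 neutrophil genes. List members were counted by gene, with a match in any promoter of the gene, while all promoters were counted singly. AACCACA was in 2 of 14 osteoblast and osteocyte genes, with 5.57% of all promoters. It was also in 2 of 15 cartilage matrix, 2 of 10 osteoclast, 1 of 21 erythroid, and 2 of 24 neutrophil genes. ACAAAG was in 1 of 15 cartilage matrix genes, with 18.8% of all promoters, and Col10a1 is not in that list. The promoter of Hba-a2, a second alpha gene with no entry of that name in the table, had the same base as that of Hba-a1 at 288 of 300 positions. A match of letters is a description and not a bound site.

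Matrix genes that cartilage, bone, and fibrous tissue share were lowest in library 2 in all 21 cases (37.4% of all genes were) and over 2-fold apart in 20 (14.2% of all genes were). The list held 5.52, 1.96, and 4.31% of the summed FPKM, and 10.2, 4.27, and 8.23% of the reads. Bgn, a small proteoglycan of many matrices, read 355, 73.9, and 268 FPKM, and Fmod, a small proteoglycan that binds collagen, read 264, 8.69, and 136 FPKM. The gap of Fmod was of the size of the cartilage genes, while those of Col1a1 and Col1a2 were about 2-fold. Genes of endothelial cells were low, with the diaphragm protein gene Plvap at 17.3, 8.05, and 12.6 FPKM, and 1 of 14 was over 2-fold apart. Of 7 tendon and ligament genes 3 passed, led by Thbs4 at 23.2, 11.2, and 12.6 FPKM.

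Skeletal muscle genes marked out library 1. All 18 that passed were highest in library 1 (30.1% of all genes were) and over 2-fold apart (14.2% of all genes were). Of them 6 reached 1 FPKM in every library, and these 6 were all over 2-fold apart. For members that passed through library 1 alone, both counts follow from the limits. The muscle list summed to 498, 108, and 35.5 FPKM, or 0.258, 0.0535, and 0.0190% of the library. Acta1, the actin of skeletal muscle, read 157, 31.0, and 3.81 FPKM, and Ckm, the muscle creatine kinase, read 45.6, 8.49, and 0.615 FPKM. Atp2a1, the calcium pump of fast muscle, read 27.6, 4.84, and 0.748 FPKM, and Pvalb, a calcium-binding protein of fast fibres, read 12.9, 2.34, and 0.480 FPKM. The order of libraries here, with library 3 the lowest for 17 of 18 genes (19.9% of all genes were lowest there), was not that of the cartilage genes.

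Eosinophil genes marked out library 3. Prg2, the major basic protein of eosinophil granules, read 38.3, 41.9, and 439 FPKM, and Epx, the eosinophil peroxidase, read 6.94, 3.80, and 78.2 FPKM. Prg3, a relative of Prg2, read 6.90, 2.07, and 82.2 FPKM, and Ear1, an eosinophil ribonuclease, read 0.180, 0.0733, and 18.0 FPKM. Of the 9 passed members of the list for mast cells, basophils, and eosinophils, 5 were highest in library 3 (22.3% of all genes were), these 4 and the mast cell protease gene Mcpt1 at 1.5, 0.950, and 3.34 FPKM. Ear1 and Mcpt1 passed the limits through library 3, and their place there follows from that. The chymase gene Cma1, at 4.92, 6.92, and 4.24 FPKM, and Ms4a2, a chain of the IgE receptor, at 3.59, 6.49, and 3.30 FPKM, were highest in library 2. The list summed to 66.9, 68.1, and 634 FPKM. Adipocyte genes were highest in library 3 in 7 of 8 cases (22.3% of all genes were, and 34.4% at equal sums), 1 of which, Plin1, passed through that library alone, with Adipoq, the hormone adiponectin, at 1.32, 1.63, and 7.03 FPKM.

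Over all genes, 1569 of 11028 (14.2%) were over 2-fold apart between their highest and lowest library, 401 (3.64%) were over 4-fold apart, and 4147 (37.6%) had a highest library at most 25% above the lowest. Without library 2, 223 of 11131 genes were over 2-fold apart. Library 2 was over 2-fold below both other libraries for 689 genes and over 2-fold above both for 87, which became 805 and 46 at equal sums. Library 1 was above both others by this measure for 103 genes and below them for 36, and library 3 was above for 29 and below for 39. Library 2 had the highest level for 47.6% of genes, but 37.1% after rescaling to equal sums, when library 3 rose from 22.3 to 34.4%.

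The spread was larger than counting alone gives. The median coefficient of variation (CV, the SD over the mean of the 3 libraries) was 15%, where the number of reads alone would give 4.17%. For genes from 1 to 3 FPKM the median CV was 18.1%, and for those over 100 FPKM it was also 15% although counting error there was 0.971%. The share of genes over 2-fold apart was 20.6% in the lowest class and 21.2% in the highest, with 10.5% in the class from 3 to 10 FPKM.

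**Figure D5:**
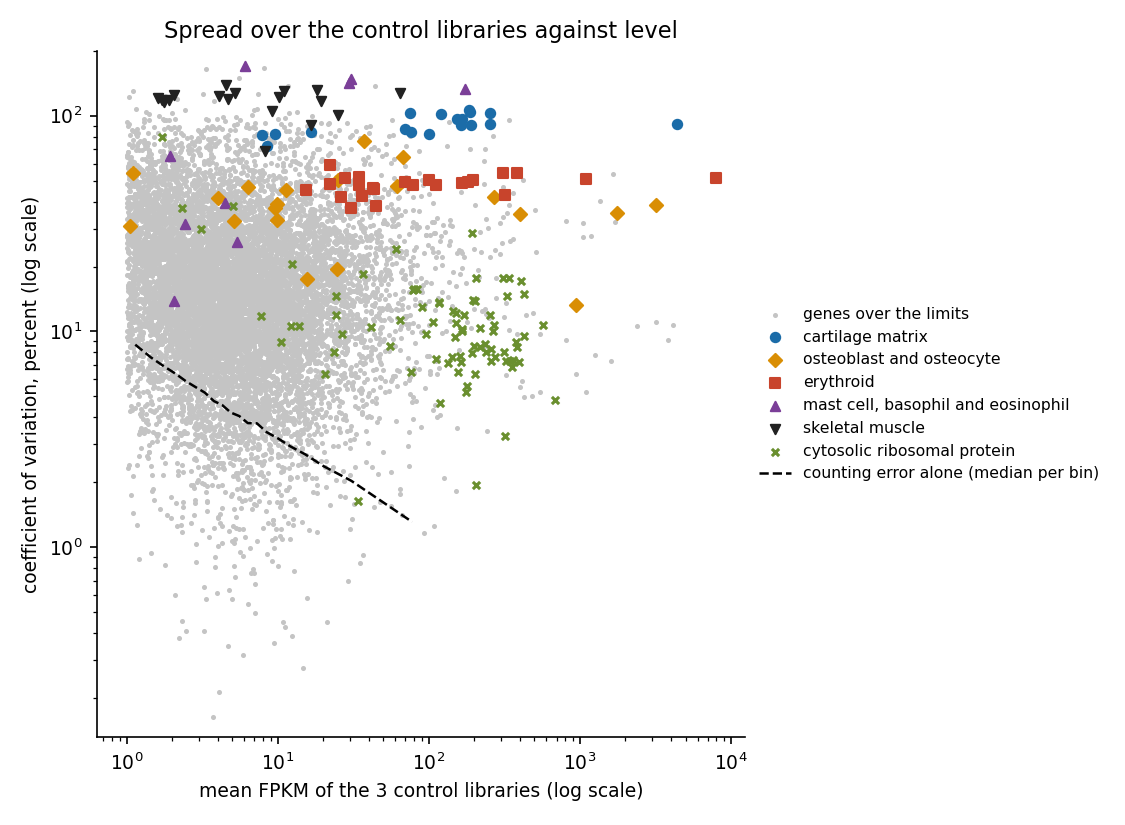
Coefficient of variation over the 3 control libraries (vertical, log scale) against mean FPKM (horizontal, log scale) for the 11028 genes, with gene lists in colour and the CV expected from read counts alone as a dashed line. Most genes lie above the line, cartilage genes lie near 90.9%, the median of their list, and ribosomal protein genes near 10.1%.

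The 15 named genes with the highest CV are given by their highest library. Ear1 led at 170%, and Prg3, Epx, and Prg2 followed at 148, 142, and 133%. LOC100361814 and Rnase17 read 0.519, 0.0770, and 23.7 FPKM and 0.352, 0, and 9.74 FPKM, and RGD1359290 read 8.14, 9.92, and 114 FPKM. All of these were highest in library 3, as was Ifit1, an interferon-induced gene, at 0.434, 1.07, and 15.1 FPKM. Myh4, a fast myosin heavy chain, Ckm, Atp2a1, Acta1, and Pvalb had CVs of 128 to 138% and were highest in library 1. The last were C1qtnf3, a secreted protein of cartilage, at 29.8, 0.269, and 4.77 FPKM, and Tnn, a tenascin, at 2.72, 0.0574, and 0.517 FPKM.

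Chosen after their values were seen, 2 more genes of cartilage are given. Clec3a, a lectin of cartilage, read 440, 27.4, and 331 FPKM, and Mgp, an inhibitor of calcification, read 294, 40.5, and 229 FPKM.

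The 15 named genes with the lowest CV had at least 10 FPKM and 200 reads. Rab14, a GTPase of membrane traffic, read 14.8 FPKM in each library, with a CV of 0.275%, and Dync1i2, a chain of dynein, read 12.4, 12.3, and 12.4 FPKM. Sdhc, a subunit of succinate dehydrogenase, read 21.4, 21.2, and 21.3 FPKM. For Rab14 the CV from counting alone was 2.56%, and so small a spread among 3 libraries is below what the reads can resolve. Which genes came first rested on the scaling, since at equal sums the CV of Rab14 was 3.82% and 0 of the 15 genes were among the 15 lowest, and 5 were with median-of-ratios scaling. These genes had CVs of up to 1.16%, reached by Arpc1b, a subunit of the ARP2/3 complex, at 91.8, 93.0, and 93.9 FPKM. Of 80 ribosomal protein genes that passed, 53 had a highest library at most 25% above the lowest, where 37.6% of all genes did, and 3 were over 2-fold apart, where 14.2% of all genes were.

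Genes used as references in qPCR are given next. Ywhaz, a 14-3-3 protein, read 84.7, 91.0, and 88.9 FPKM, and Gusb, a lysosomal enzyme, read 19.7 to 20.8 FPKM. Gapdh, a glycolytic enzyme, read 70.6, 51.7, and 49.0 FPKM, and its many near copies in the genome may hold part of its reads. Of 15 passed reference genes 7 stayed within the same 25%, a share near the 37.6% of all genes. Eef1a1 was listed at 0.0709, 0.101, and 0 FPKM, low for a gene that every cell uses, and Junb was listed at 0 in all libraries, so that an entry near 0 need not mean absent RNA.

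Of the other genes named in the study, Piezo1, a channel opened by membrane stretch, read 12.6, 11.1, and 11.1 FPKM. Xbp1 and Atf6, transcription factors of the unfolded protein response, read 45.3, 29.1, and 34.9 FPKM and 5.40, 4.61, and 5.64 FPKM. These 3 genes were within 2-fold over the libraries, as were all but 14.2% of genes. Mmp13, a collagenase of hypertrophic chondrocytes and bone cells, read 87.6, 54.4, and 106 FPKM and was lowest in library 2, as Col2a1 was, but by less. The cytokine genes Il1b and Tnf stayed under the limits, with Il1b at 0.624, 1.09, and 1.02 FPKM and Tnf at 0.0592, 0.161, and 0.210 FPKM. How far the mixture of tissues in a library set the level of any of these genes was not tested.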

How the data were processed

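The 3 libraries were grouped by their labels as control. The authors deposited 1 table of FPKM for all libraries, with gene length, position, and biotype. The submitters' processing notes name HISAT2 2.0.5 and the build hg38, which is a human one, while the gene identifiers are those of rat, and the rat build is not given in the sources used here. FPKM times gene length was a whole multiple of 1 step per library for 100% of values (tolerance 0.1 read), and this gave the reads. Python 3.11.15, pandas 2.3.3, and numpy 2.4.6 were used.

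With 1 group there was no contrast to test, so no p-value was computed. Genes apart had a highest library over 2 times the lowest, and close genes at most 25% above it. Named genes were, outside the mitochondrial chromosome, the 25 highest of at least 300 bp and the 5 highest shorter ones, 4 or all members per list, those at 0, the 15 with the highest and lowest CV, and the genes named in the study. The lowest CVs were taken at 10 FPKM and 200 reads or more. The number of columns left out was 0. A total of 9 genes were matched by description or a second name. The 29 lists and the 2 lists made by rule, like the choice of libraries, were made with earlier results of these data known. The motifs were chosen after the data were seen. The steps were tested on simulated data. Alternatives were other scalings, limits, and pseudocounts, and leaving out each library. Some items are not reported here.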

Additional observations from a re-analysis of the deposited data

How the results depend on the processing

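No paired analysis was possible because only the control group was described, so that replicate numbers had no partner. With recovered reads in place of FPKM, the mean share was 6.19% for the osteoblast and osteocyte list (3.55% on FPKM), 1.66% for the neutrophil list (4.60%), and 0.274% for the B lineage list (0.382%). It was also over 1.5 times lower for the mitochondrial genes and the ribosomal protein genes. Without its highest member, it was 1.89% for the osteoblast and osteocyte, 0.458% for the osteoclast (0.636% with it), 1.72% for the erythroid (5.75%), and 0.292% for the B lineage list. In the cartilage matrix list the highest member, Col2a1, made up 68.3% of the summed mean FPKM. The share of that list on reads was 11.0, 0.523, and 6.14% in libraries 1, 2, and 3. The 1569 genes over 2-fold apart became 950 with a pseudocount of 1 FPKM, 409 at a mean of 10 FPKM, and 5232 with no limit but a value above 0 in all libraries. The 4147 genes within 25% became 1203 at a mean of 10 FPKM. Rescaled to TPM, library 3 was highest for 3797 genes (2455 before). With no limits, r was 0.97 between libraries 1 and 2 and 0.98 between libraries 2 and 3. Fewer genes or more genes near 0 enter under these limits.

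Leaving out 1 library at a time gave 223 to 1393 genes over 2-fold apart, with 827 without library 1 and 223 without library 2, and 5163 to 8500 genes within 25%, with 8500 without library 2. The mean ratio of marrow to cartilage ran from 1.99 without library 2 to 31.3, and that of bone to cartilage from 1.09 to 5.96. The mean share of the cartilage matrix list ran from 1.83% without library 1 to 4.90% without library 2. Of the 100 highest genes, 91 to 97 remained. For single genes, 164 of 176 gaps stayed on the same side of the limits when rescaled to TPM and 167 of 176 with median-of-ratios scaling. The causes were not tested. At 14914121 to 18107232 reads per library, genes under 50 reads were too sparse to compare.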
